A study of Homo sapiens with 8 samples.

Results

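The Iroquois genes code for homeodomain transcription factors of the TALE class, which pattern the embryo, and lie in 2 paralogous clusters. IRX4, IRX2 and IRX1 form the cluster on chromosome 5, and IRX3, IRX5 and IRX6 form the one on chromosome 16. The H3K27me3 islands that overlapped these clusters in 2 human lymphoma B-cell lines are described here. They were 124 of 105576 islands, 55 of 47432 in LY19Y646F and 69 of 58144 in LY19WT. The clusters were taken on hg19 from 1870001 to 3620000 on chromosome 5 and from 54300001 to 55380000 on chromosome 16. Members were chosen by position, and the gene spans were set to the nearest kb and extended by 10 kb on each side.

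LY19Y646F cells expressed EZH2-Y646F constitutively from a CMV promoter, and LY19WT cells carried wild-type EZH2. Both lines were untreated and at passages 10 to 15, and each gave 3 H3K27me3 ChIP libraries and 1 input library. The authors merged the ChIP libraries of a line and called islands against its input, so each line is 1 list. The lists held 17410034 ChIP and 3527109 input reads in islands for LY19Y646F, and 37556030 and 4949411 for LY19WT. No difference between the lines below has a replicate error or a test, and intervals cover counting error only. Reads outside islands were not analysed here, so a place without an island may hold the mark below the calling threshold. The lists may also lack a small number of islands, which bears on every such place named below. With no expression values, the cell type of the labels was not checked against its markers.

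H3K27me3 is deposited by Polycomb repressive complex 2, whose catalytic subunit is EZH2, and is a mark of silenced developmental genes. The complex is known to gather at CpG-rich gene starts, and the mark can spread from there over broad domains. Iroquois genes are textbook Polycomb targets in embryonic stem cells and in tissues that do not use them. The 250 bases upstream of the annotated start are shown for IRX4, IRX2 and IRX1, because the results turn on whether islands reached the genes. These 3 of the 6 genes were matched by symbol to RefSeq promoters (GRCh38.p14). Capitals mark each CG, which reads the same on both strands.
IRX4: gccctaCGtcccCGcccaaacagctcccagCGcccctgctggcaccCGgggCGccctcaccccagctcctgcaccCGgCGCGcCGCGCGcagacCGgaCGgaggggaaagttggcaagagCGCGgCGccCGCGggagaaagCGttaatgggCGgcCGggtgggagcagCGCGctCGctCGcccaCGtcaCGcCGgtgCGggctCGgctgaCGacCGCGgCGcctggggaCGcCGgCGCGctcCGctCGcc
IRX2: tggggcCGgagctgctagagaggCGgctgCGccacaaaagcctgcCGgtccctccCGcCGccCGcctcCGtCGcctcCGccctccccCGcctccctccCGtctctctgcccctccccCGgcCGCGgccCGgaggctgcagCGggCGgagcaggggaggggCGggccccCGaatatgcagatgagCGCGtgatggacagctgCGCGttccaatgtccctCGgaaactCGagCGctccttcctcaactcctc
IRX1: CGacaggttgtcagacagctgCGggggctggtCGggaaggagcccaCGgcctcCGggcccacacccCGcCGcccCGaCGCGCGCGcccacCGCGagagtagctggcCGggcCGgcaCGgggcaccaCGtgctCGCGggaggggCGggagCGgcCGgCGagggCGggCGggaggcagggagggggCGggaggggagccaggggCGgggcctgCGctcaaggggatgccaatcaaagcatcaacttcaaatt
The stretches are chr5:1887180-1887429 on the minus strand for IRX4, chr5:2751678-2751927 on the minus strand for IRX2 and chr5:3595582-3595831 on the plus strand for IRX1. They hold 40, 27 and 29 CG dinucleotides, against a median of 11 over the same stretch of 35116 promoters. At least as many were found in 2.16% of these promoters for IRX4, 17.7% for IRX2 and 14.1% for IRX1. The islands are on hg19, so no distance was measured between these stretches and an island.

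The clusters differed between the lines in opposite directions. On chromosome 5, islands covered 20.6% of the cluster in LY19Y646F and 4.97% in LY19WT, a difference of 15.6 percentage points. There were 52 islands over 360.6 kb in LY19Y646F and 16 islands over 87 kb in LY19WT. On chromosome 16, islands covered 1.07% of the cluster in LY19Y646F and 28.6% in LY19WT, a difference of -27.5 percentage points. There were 3 islands over 11.6 kb in LY19Y646F and 53 islands over 308.6 kb in LY19WT. Covered length was thus 4.14 times as long in LY19Y646F on chromosome 5, and 26.6 times as long in LY19WT on chromosome 16.

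**Figure D1:**
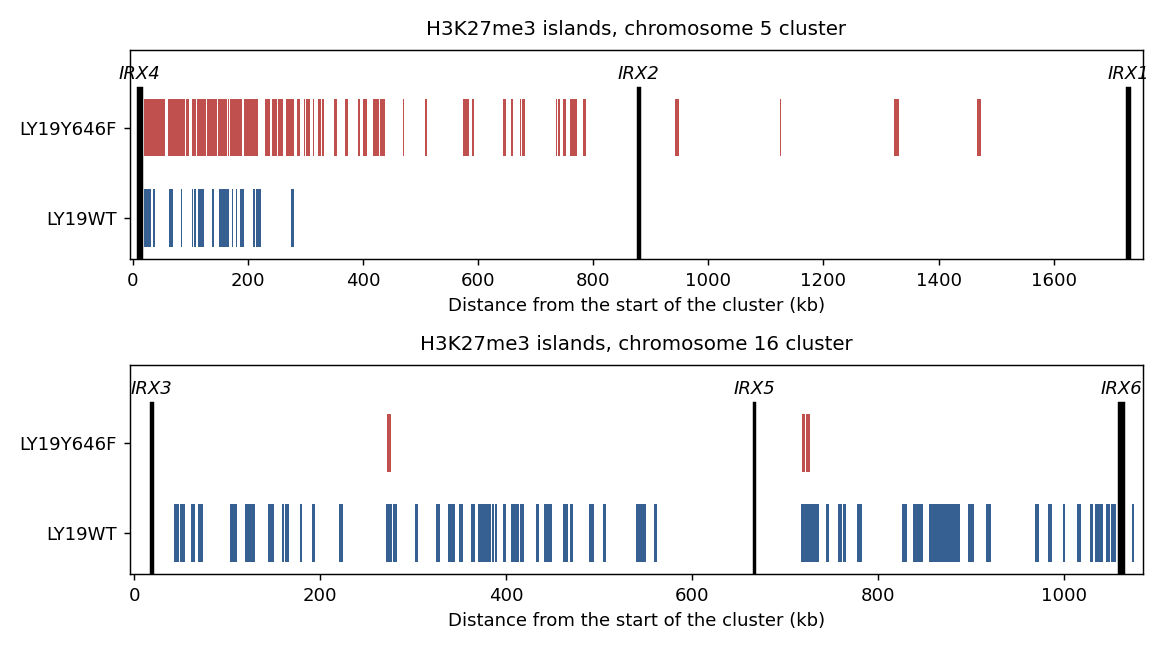
Each box is 1 H3K27me3 island, drawn to scale along the chromosome 5 cluster (above) and the chromosome 16 cluster (below), with distance from the start of the cluster in kb on the x axis. Black bars are the gene spans without extension. The 52 LY19Y646F islands of chromosome 5 are densest on the IRX4 side, but 31 of them lie in the stretch from 2150401 to 3620000. The 53 LY19WT islands of chromosome 16 spread over the cluster. No island of either line touches a gene span.

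With only the best LY19WT islands by p-value kept, up to the total length of the LY19Y646F list, the chromosome 16 cluster stood at 1.07% in LY19Y646F and 8.76% in LY19WT. The chromosome 5 cluster then stood at 20.6% in LY19Y646F and 2.67% in LY19WT. Both directions were kept, while the difference on chromosome 16 shrank to -7.69 points. A cut by p-value tends to drop short islands with few reads. The LY19WT islands here were short, with a median of 3.9 kb on chromosome 5 and 4.2 kb on chromosome 16, against 5.8 kb in the list. Their median authors' fold, a ratio of ChIP to scaled input, was 2.37 on chromosome 5 and 1.97 on chromosome 16, against 2.28 in the list. How far width or fold made the shares fall was not tested.

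Relative to the autosomal median, input density in islands was lower in LY19Y646F around both clusters. Over the islands from 50 to 60 Mb of chromosome 16, the median input density was 0.747 times the autosomal median in LY19Y646F, from 67 islands, and 1.02 times in LY19WT, from 273. Over the first 10 Mb of chromosome 5 it was 0.933 times in LY19Y646F and 0.969 times in LY19WT. In the chromosome 16 cluster itself it was 0.733 times in LY19Y646F, from 3 islands, and 1.04 times in LY19WT. In the chromosome 5 cluster it was 0.930 times in LY19Y646F and 0.994 times in LY19WT. There the line with the lower input density had the higher coverage. The part of DNA abundance in the chromosome 16 difference was not tested. Input was read only where islands were called, so the places compared are not the same.

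None of the 6 gene spans, taken without extension, held an island in either line, and 60.0% of autosomal windows of 10 kb, which are longer than the spans, held none in either. Extended by 10 kb, no span was covered by at least 50% in LY19Y646F or in LY19WT, where 12.4% and 19.5% of autosomal windows of 25 kb were. The extended spans of IRX2, IRX1, IRX3 and IRX5 held no island in either line, 4 of 6, and 52.3% of the windows were free of islands in both. By line, 5 of the 6 extended spans were free of islands in LY19Y646F, against 70.4% of windows, and 4 of 6 in LY19WT, against 63.0%. With 6 genes, these counts are read as no result about Iroquois genes. The windows include sequence to which few reads can be mapped.

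IRX4 encodes the Iroquois factor known for ventricular heart muscle, and it had the closest islands on chromosome 5. Islands covered 31.7% of its extended span in LY19Y646F and 22.1% in LY19WT. These shares move with the extension, to 13.7% in LY19Y646F and 7.37% in LY19WT with 5 kb, and to 57.6% in LY19Y646F and 34.6% in LY19WT with 25 kb. The nearest island began 2.4 kb above the span in LY19Y646F, from 1889401 to 1905400, with 783 ChIP reads, 106 input reads and an authors' fold of 2.82. In LY19WT it began 3.6 kb above the span, from 1890601 to 1902600, with 707 ChIP reads, 98 input reads and a fold of 2.35. IRX4 lies on the minus strand, so this is its upstream side, and the LY19WT island lay wholly inside the LY19Y646F island. On the other side the next island was 8.4 kb away in LY19Y646F and 11.6 kb in LY19WT. The island-free stretch around IRX4 measured 19.8 kb in LY19Y646F and 24.2 kb in LY19WT. Stretches at least as long held 92.8% of the island-free length between autosomal islands in LY19Y646F and 88.3% in LY19WT.

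IRX2 lies between the other two chromosome 5 genes, and in mice Irx1 and Irx2 are expressed in the developing lung and limb. In LY19Y646F the nearest island was 59.4 kb above the IRX2 span, from 2811401 to 2818600, with 266 ChIP and 48 input reads. In LY19WT the nearest island was 595.6 kb below it, from 2145601 to 2150400, with 408 ChIP and 67 input reads. The nearest island to IRX1 was 56.8 kb away in LY19Y646F and 1034.2 kb away in LY19WT. In LY19WT 1 island-free stretch of 2485.8 kb held both genes. Stretches of that length or more, assembly gaps included, held 24.7% of the island-free autosomal length in LY19WT. In LY19Y646F the stretches measured 154.6 kb around IRX2 and 315.8 kb around IRX1. Of the island-free autosomal length in LY19Y646F, 73.3% and 60.8% lay in stretches at least as long as these.

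IRX3 and IRX5 are known for the long-range contacts of the obesity-associated FTO locus and, in mice, for the conduction and repolarisation of the heart. For IRX3 the nearest island was 252.0 kb away in LY19Y646F and 17.4 kb away in LY19WT. The stretch without islands around it was 989.6 kb in LY19Y646F and 43.2 kb in LY19WT. Of the island-free autosomal length, 43.0% in LY19Y646F and 83.8% in LY19WT lay in stretches at least as long. For IRX5 the lines were alike on the side of higher coordinates, with the nearest island 49.8 kb away in LY19Y646F and 49.6 kb in LY19WT. On the other side the next island was 389.4 kb away in LY19Y646F and 103.2 kb in LY19WT. IRX5 thus stood in a stretch without islands of 155.8 kb even in LY19WT, where the rest of the cluster was dotted with them. Stretches of that length or more held 71.0% of the island-free autosomal length in LY19WT.

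IRX6, known in mice from retinal bipolar cells, was the chromosome 16 gene with islands closest by in LY19WT. Islands covered 0% of its extended span in LY19Y646F and 32.6% in LY19WT. The LY19WT share was 16.5% with an extension of 5 kb and 20.7% with the LY19WT list cut to equal length. The nearest LY19WT island ended 2.2 kb below the span and ran from 55350201 to 55355800, with 321 ChIP and 33 input reads. Its authors' fold of 3.17 was the highest of the 53 LY19WT islands of this cluster. In LY19Y646F the nearest island was 331.4 kb away, and the stretch without islands around IRX6 measured 815.2 kb, against 17.4 kb in LY19WT. Of the island-free autosomal length, 45.4% in LY19Y646F and 90.8% in LY19WT lay in stretches at least as long.

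**Figure D2:**
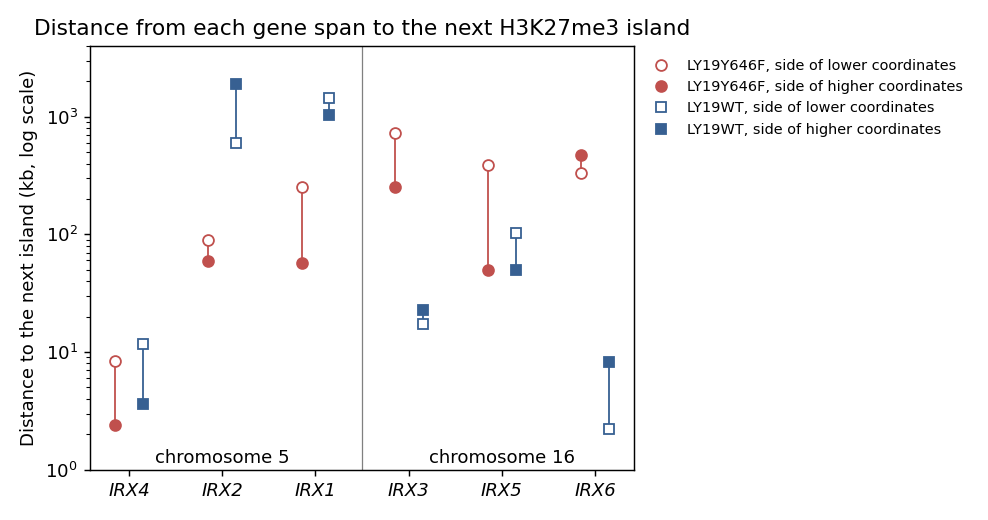
Distance in kb, on a log axis, from each gene span without extension to the next island on the side of lower (open) and of higher (filled) coordinates, for LY19Y646F (circles) and LY19WT (squares). The LY19Y646F points lie lower for IRX4, IRX2 and IRX1, the LY19WT points lie lower for IRX3 and IRX6, and for IRX5 the filled points nearly coincide, at 49.8 kb in LY19Y646F and 49.6 kb in LY19WT.

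Between the genes, the chromosome 5 islands were densest near IRX4. The segment from IRX4 to IRX2, 859 kb long, had a coverage of 39.0% in LY19Y646F and 10.1% in LY19WT. It held 48 of the LY19Y646F and all 16 of the LY19WT islands of the cluster. In steps of 100 kb from the start of the cluster, LY19Y646F coverage was 68.2%, 86.0% and 63.2% and then between 16.6% and 32.6% over the next 5 steps. LY19WT coverage was 26.0%, 47.0% and 14.0% in the first 3 steps and 0% in all later ones. The segment from IRX2 to IRX1, 844 kb long, was covered to 3.01% by 4 LY19Y646F islands, and LY19WT had none there. The longest stretch with islands in LY19Y646F alone ran from 2150401 to the end of the cluster at 3620000 and held 31 islands over 151 kb. The longest with islands in LY19WT alone measured 11.8 kb.

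The islands of the chromosome 16 cluster in LY19WT were spread on both sides of IRX5. The segment from IRX3 to IRX5 was covered to 0.558% in LY19Y646F, by 1 island, and to 27.1% in LY19WT, by 33. The segment from IRX5 to IRX6 was covered to 2.05% in LY19Y646F, by 2 islands, and to 33.7% in LY19WT, by 19. LY19WT coverage in steps of 100 kb ran from 14.6% to 51.8%, except for 0% in the step that holds IRX5. The longest stretch with islands in LY19WT alone ran from 54575601 to 55017800 and held 22 islands over 109.2 kb. Of these, 2 crossed its ends, were counted in part and overlapped LY19Y646F islands outside it.

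**Figure D3:**
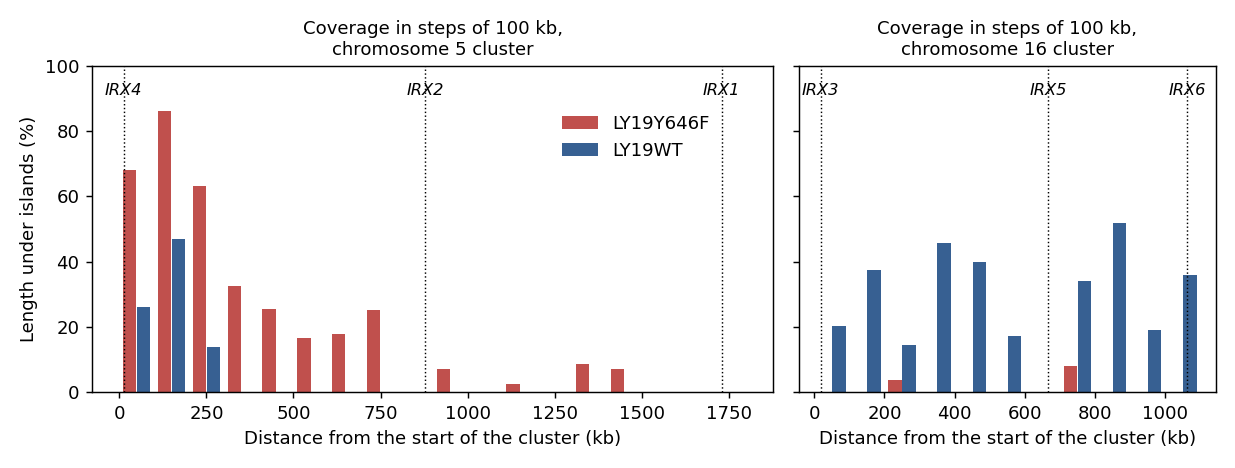
Length under islands in percent, in steps of 100 kb from the start of each cluster, for LY19Y646F (red, left bar of a step) and LY19WT (blue, right bar). The last step of a cluster is shorter, and dotted lines mark the genes. LY19Y646F reaches 86.0% in the step after the one that holds IRX4, which has 68.2%. LY19WT reaches 51.8% between IRX5 and IRX6.

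No island of the clusters was among the broad domains over 50 kb. The longest in LY19Y646F measured 23.2 kb, on chromosome 5 from 1932401 to 1955600, with 1037 ChIP and 181 input reads and a fold of 2.19. LY19WT islands covered 42.2% of it. The next measured 20.8 and 18.2 kb, from 2039601 to 2060400 and from 1999201 to 2017400, and LY19WT islands covered 35.6% and 19.8% of them. The longest in LY19WT measured 27.4 kb, on chromosome 16 from 55160601 to 55188000, with 1592 ChIP and 217 input reads and a fold of 2.39. No LY19Y646F island overlapped it. The next on chromosome 16, of 18.8 kb from 55017601 to 55036400, lies on the far side of IRX5 from IRX3 and was covered to 42.6% in LY19Y646F. The third, of 14.2 kb from 54669401 to 54683600, was free of LY19Y646F islands. On chromosome 5 the longest LY19WT islands measured 18, 12 and 9 kb and were covered to 87.8%, 100% and 91.1% in LY19Y646F. They ran from 2020201 to 2038200, from 1890601 to 1902600 and from 1984401 to 1993400.

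The islands of the line with less coverage were mostly nested in the territory of the other. On chromosome 5, 14 of 52 LY19Y646F islands overlapped a LY19WT island, and 15 of 16 LY19WT islands overlapped a LY19Y646F island. On chromosome 16, 3 of 3 LY19Y646F and 2 of 53 LY19WT islands overlapped the other line. Over the whole lists the shares were 56.5% of LY19Y646F and 39.1% of LY19WT islands. Shared length on chromosome 5 was 77 kb, 21.4% of the LY19Y646F and 88.5% of the LY19WT length in the cluster. Shared length on chromosome 16 was 11.6 kb, 100% of the LY19Y646F and 3.76% of the LY19WT length. Shared length over length in either line was 0.208 on chromosome 5 and 0.0376 on chromosome 16, against 0.245 over the autosomes. This index cannot exceed the shorter covered length over the longer, 0.241 on chromosome 5 and 0.0376 on chromosome 16. The chromosome 16 value is thus at its limit and restates the difference in coverage. With the LY19WT list cut to equal length the index was 0.120 on chromosome 5 and 0.0815 on chromosome 16, against 0.225 over the autosomes.

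All 3 LY19Y646F islands of chromosome 16 were short. The one between IRX3 and IRX5, from 54572001 to 54575600, had 137 ChIP reads, 17 input reads and an authors' fold of 3.08. The other 2 lay next to each other beyond IRX5. They ran from 55017801 to 55021200, with 148 ChIP and 21 input reads, and from 55022001 to 55026600, with 173 ChIP and 42 input reads. Both fell inside the 18.8 kb LY19WT island named above.

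Raw ChIP density inside the islands was lower in LY19Y646F, as it was over the whole lists. Input density was lower in both clusters too, while its autosomal median was 8.42 reads per kb in LY19Y646F and 8.41 in LY19WT. On chromosome 5 it was 42.5 ChIP and 7.76 input reads per kb in LY19Y646F, against 62.3 ChIP and 8.51 input reads in LY19WT. On chromosome 16 it was 39.5 ChIP and 6.90 input reads per kb in LY19Y646F, against 53.4 ChIP and 8.44 input reads in LY19WT. The median ChIP density of autosomal islands was 41.8 reads per kb in LY19Y646F and 57.4 in LY19WT. The LY19WT islands of chromosome 16 were thus thinner than usual for their list, with a median of 51.6 reads per kb and a range from 43.5 to 72.1. The LY19Y646F islands of chromosome 5 had a median of 42.7 reads per kb and a range from 33.4 to 51.2.

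**Figure D4:**
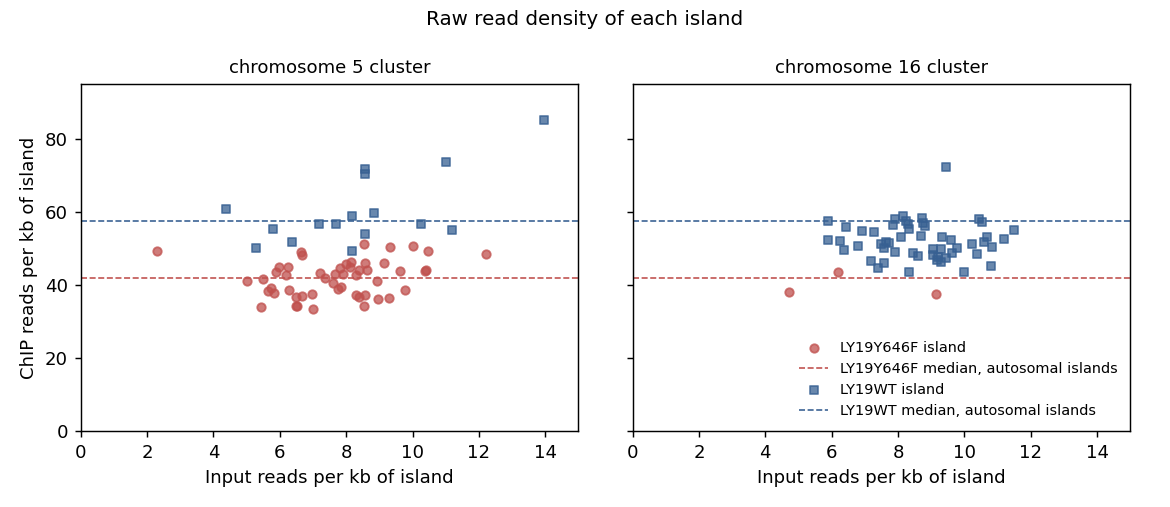
Raw ChIP reads per kb against raw input reads per kb for each island of the chromosome 5 cluster (left) and the chromosome 16 cluster (right), LY19Y646F as circles and LY19WT as squares. Dashed lines are the median ChIP density of autosomal islands, 41.8 in LY19Y646F and 57.4 in LY19WT. Most LY19WT islands of chromosome 16 lie below the line of their list.

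Enrichment, the ratio of ChIP to input reads divided by the library ratio of the list, was 2.09 in LY19Y646F (95% exact interval 2.01 to 2.18) and 2.38 in LY19WT (2.21 to 2.58) on chromosome 5. The log2 ratio of LY19Y646F to LY19WT was -0.19 and turned to 0.56 when ChIP reads per kb were scaled by the total of ChIP reads within islands. On chromosome 16 enrichment was 2.19 in LY19Y646F (1.72 to 2.81), from 80 input reads, and 2.06 in LY19WT (1.97 to 2.15). These intervals overlap, and the log2 ratio of 0.09 had an interval of -0.27 to 0.45. That interval holds 0, and on chromosome 5 the choice of scaling sets the sign, so neither direction is given here as a result. Of 4 chromosome 5 islands matched by at least 50% of both, the authors' fold was lower in LY19Y646F for 3, against 72.7% of 8368 matched pairs in the lists. The exception was the island next to IRX4, with folds of 2.82 in LY19Y646F and 2.35 in LY19WT. The 1 matched island of chromosome 16, between IRX3 and IRX5, also had the higher fold in LY19Y646F, 3.08 against 2.18 in LY19WT. That LY19Y646F fold rested on 17 input reads, with a 95% exact interval of 1.85 to 5.43. At both islands ChIP density was lower in LY19Y646F, 48.9 against 58.9 reads per kb next to IRX4 and 38.1 against 58.3 on chromosome 16. Input density was lower there too, 6.6 against 8.2 and 4.7 against 8.7 reads per kb.

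A single LY19Y646F island stood out by fold. It ran from 2542601 to 2545200 on chromosome 5, between IRX4 and IRX2, with 128 ChIP reads over 6 input reads, an authors' fold of 8.14. Its ChIP density of 49.2 reads per kb was within the range of the other islands of the cluster, and its input density of 2.31 reads per kb was 0.274 times the autosomal median. No LY19WT island overlapped it.

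Set beside their surroundings, the clusters shared the direction of their flanks. The 1 Mb below the chromosome 5 cluster had 289.2 kb under LY19Y646F islands and 159.8 kb under LY19WT islands. The 1 Mb above it had 52.4 kb under LY19Y646F islands and none under LY19WT islands. Coverage of the rest of chromosome 5 was 11.7% in LY19Y646F and 16.7% in LY19WT, the opposite order. The 1 Mb below the chromosome 16 cluster, the side of FTO, had a coverage of 0.580% in LY19Y646F and 8.44% in LY19WT. The 1 Mb above it, the side of the matrix metalloproteinase gene MMP2, had a coverage of 3.16% in LY19Y646F and 63.9% in LY19WT. Coverage of the rest of chromosome 16 was 10.9% in LY19Y646F and 16.3% in LY19WT.

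Of 2766 autosomal windows of 1 Mb, coverage was higher in LY19Y646F in 35.4% and lower in 51.0%. It was higher in 38.5% of chromosome 5 windows and lower in 46.1% of chromosome 16 windows. A difference at least as far toward LY19Y646F as that of the chromosome 5 cluster was found in 9.94% of the autosomal windows. One at least as far toward LY19WT as that of the chromosome 16 cluster was found in 14.9%. Neither cluster lay outside the range of these windows. The windows are shorter than the chromosome 5 cluster, of 1750 kb, and some hold no island in either line, so the shares are a rough guide.

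**Figure D5:**
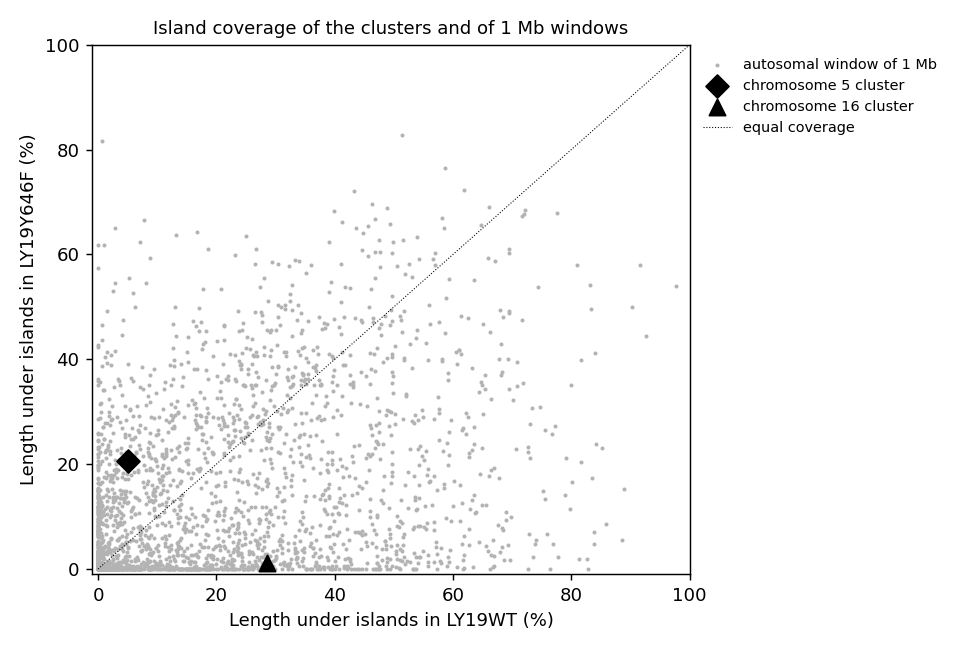
Length under islands in LY19Y646F (y axis, percent) against LY19WT (x axis, percent) for 2766 autosomal windows of 1 Mb (grey) and for the Iroquois clusters (black). The chromosome 5 cluster lies above the line of equal coverage, at 20.6% in LY19Y646F and 4.97% in LY19WT. The chromosome 16 cluster lies below it, at 1.07% in LY19Y646F and 28.6% in LY19WT, both within the cloud of windows.

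The HOX clusters, another set of clustered developmental homeobox genes, were covered more fully as a group. Coverage of their 4 clusters together was 55.3% in LY19Y646F and 41.9% in LY19WT. For the 2 Iroquois clusters together it was 13.2% in LY19Y646F and 14.0% in LY19WT. The HOX limits span 560 kb in all and the Iroquois clusters 2830 kb, of which the unextended gene spans make up 34 kb. These shares are thus taken over unlike regions. Coverage of HOXB was 82.9% in LY19Y646F and 61.8% in LY19WT, and that of HOXC was 82.3% in LY19Y646F and 79.8% in LY19WT. For HOXA it was 19.0% in LY19Y646F and 7.50% in LY19WT, and for HOXD 12.7% in LY19Y646F and 0% in LY19WT. All 4 had the direction of the chromosome 5 Iroquois cluster, as had 35.4% of autosomal windows of 1 Mb. The difference was 2.5 points for HOXC, and that of HOXD rested on 3 LY19Y646F islands. The chromosome 16 cluster had the opposite direction, as had 51.0% of the windows. With 4 HOX clusters, this count is read as no result.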

How the data were processed

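Per the labels, islands of H3K27me3 were called by the authors with SICER on merged ChIP replicates with that line's input as control (FDR 0.001). Per the submitters' processing notes, the build was hg19 and the tools included SAMtools 1.3.1 and Bowtie2 2.2.9, besides bedtools and SICER (version not given in the sources used here). Each list has 1 row per island. Per the file headers, each island has raw counts of ChIP and input reads, a fold (a linear ratio of ChIP to scaled input), a p-value and an FDR. These are the authors' values. SICER joins windows of 200 bp across gaps, so island ends are coarse.

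Covered share, overlap (at least 1 bp unless stated), distances and read density were computed from the deposited coordinates, given 1-based. Reads of an island across a limit were shared out by length. The library ratio is the constant that turns the ChIP to input count ratio into the deposited fold. Intervals are exact (Clopper-Pearson, 95%) on raw counts, and PCR duplicates are not accounted for. Windows of 10 kb, 25 kb and 1 Mb tile each autosome from its first to its last island. HOX limits came from general knowledge of hg19. All 6 genes were named, with the island nearest to each gene and the 3 longest islands of each cluster and line. The island with the highest fold was chosen after its values were seen. The members and lists were chosen with earlier results of these data known. No test was run. Coverage and level steps were tested on simulated lists. Values were computed in Python 3.11.15 with pandas 2.3.3, numpy 2.4.6 and scipy 1.17.1, and drawn with matplotlib 3.10.9.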

Additional observations from a re-analysis of the deposited data

How the results depend on the processing

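No paired analysis was possible because the replicates of a line were merged before the islands were called, and for the same reason no replicate could be left out. The direction of the covered share was kept in both clusters under each alternative run. For chromosome 5 the difference of LY19Y646F minus LY19WT, 15.6 points, was 13.9 at an FDR of 1e-10, 17.1 with islands joined across 5 kb, 17.9 with the LY19WT list cut to equal length and 15.0 with limits extended by 100 kb. For chromosome 16 the same settings turned -27.5 points into -24.2, -30.4, -7.69 and -32.2. An FDR of 1e-05 moved neither beyond an interval that treats windows of 200 bp as independent. Shared length over length in either line became 0.238 (joined) and 0.120 (equal length) on chromosome 5, from 0.208, and 0.0261 (FDR of 1e-10) and 0.0815 (equal length) on chromosome 16, from 0.0376.

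The count of gene spans covered by at least 50% was 0 in both lines, and 1 in LY19Y646F with spans extended by 25 kb. From a limit of 25% of the span it was 1 in LY19Y646F (IRX4) and 1 in LY19WT (IRX6). The log2 ratio of the level on chromosome 5, -0.19, was -0.42 with no library ratio, -0.55 from raw ChIP reads per kb and 0.56, reversed, when scaled by total ChIP reads in islands. On chromosome 16, 0.09 was 0.67 under that scaling and reversed to -0.14 with no library ratio and -0.43 from raw reads. Each scaling moves all islands of a line by the same factor or drops input, and the cause of the turns was not tested. Depth limits the chromosome 16 level in LY19Y646F, which rests on 458 ChIP and 80 input reads.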
